A study of Mus musculus with 11 samples.

Results

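Chemokines are small secreted proteins that steer moving cells, and chemokine receptors are the membrane proteins that read them; their genes were described here across lung group 2 innate lymphoid cells (ILC2) and thymic DN3 cells. Members were all gene entries whose symbol starts Ccl, Cxcl, Ccr, Cxcr, Xcl, Xcr, Cx3cl, Cx3cr or Ackr followed by a digit, plus Ccrl2. The rule took 72 of 57186 gene entries, 48 ligands and 24 receptors. RNA was sequenced in bulk from cells sorted from untreated 14-day-old mice of the Cd3giCreRosa26stopZsGreen genotype, which all groups shared. In these mice Cre is expressed under the control of Cd3g, a T cell receptor complex gene, and removes a stop sequence ahead of ZsGreen in the Rosa26 locus, so ZsGreen marks cells that expressed Cre or descend from such cells. The groups were ZsGreen-negative lung ILC2 (n = 5 libraries), ZsGreen-positive lung ILC2 (n = 3) and CD4 and CD8 double-negative stage DN3 thymocytes (n = 3), whose labels give no ZsGreen gate. No label ties a replicate to a mouse of its own, so p-values measure the spread among libraries, part or all of which may be technical.

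Chemokines signal through receptors coupled to inhibitory G proteins, which lead through phosphoinositide 3-kinase, phospholipase C and small GTPases to adhesion and directed movement. Kinases and arrestins then switch the receptors off, and atypical receptors take ligands up without signalling. ILC2 are tissue-resident lymphocytes known for type 2 cytokines, while DN3 cells are T cell precursors that move through the outer thymus under the guidance of Cxcr4, Ccr9 and Ccr7.

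The promoters of 5 abundant ligands are shown, chosen because they hold a sequence form that is rare in promoters as a whole. The form searched, on both strands, was GGGNNNTTCC, the shape of a kappa B element, the site type bound by NF-kB factors. It occurred in 5.56% of 32851 promoters of 300 bases (250 before to 50 after the start) in RefSeq's GRCm38.p6 table, and in 9 of 57 promoters of the 48 members found there. Of the 8 ligands with a mean of at least 10 CPM (counts relative to library size) in lung ILC2, 7 were in the table and 5 held the form; of the other 40 ligands, 21 were in the table and 2 held it. Of the 9 receptors at that level, 8 were in the table and 0 held the form. A match is a description of letters, not a site shown to be used, and no test was made. Below, each line gives the 200 bases before the start of transcription in the direction of the gene, with the matching stretches in capitals. The windows, on GRCm38.p6, are chr11:82179813-82180012 (minus strand) for Ccl1, chr5:90903699-90903898 for Cxcl2, chr5:90891045-90891244 for Cxcl1 and chr5:90785901-90786100 for Cxcl3 (plus strand), and chr5:92348890-92349089 (minus strand) for Cxcl10.
Ccl1: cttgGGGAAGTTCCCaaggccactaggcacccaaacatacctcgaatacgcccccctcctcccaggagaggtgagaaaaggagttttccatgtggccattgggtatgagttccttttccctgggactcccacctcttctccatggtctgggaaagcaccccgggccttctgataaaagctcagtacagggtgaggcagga
Cxcl2: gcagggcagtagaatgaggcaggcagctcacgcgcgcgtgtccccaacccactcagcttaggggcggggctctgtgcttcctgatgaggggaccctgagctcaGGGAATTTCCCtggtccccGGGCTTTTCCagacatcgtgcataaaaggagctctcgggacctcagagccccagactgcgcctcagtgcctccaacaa
Cxcl1: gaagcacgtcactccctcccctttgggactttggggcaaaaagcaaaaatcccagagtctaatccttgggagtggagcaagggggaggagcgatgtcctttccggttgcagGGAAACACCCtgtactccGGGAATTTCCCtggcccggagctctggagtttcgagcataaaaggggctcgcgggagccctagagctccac
Cxcl3: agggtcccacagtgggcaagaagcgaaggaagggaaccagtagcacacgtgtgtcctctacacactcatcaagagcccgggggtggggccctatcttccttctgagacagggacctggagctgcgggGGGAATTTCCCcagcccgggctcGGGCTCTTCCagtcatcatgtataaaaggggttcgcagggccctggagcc
Cxcl10: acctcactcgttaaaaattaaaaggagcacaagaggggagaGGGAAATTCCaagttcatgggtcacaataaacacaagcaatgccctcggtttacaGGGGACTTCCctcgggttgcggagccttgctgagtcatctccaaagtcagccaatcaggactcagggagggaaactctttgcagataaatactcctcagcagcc
Cxcl1, Cxcl2 and Cxcl3 carried the same 11 bases, GGGAATTTCCC, beginning 71, 97 and 73 bases before the start. Each of these held a second stretch, GGAAACACCC in Cxcl1, GGGCTTTTCC in Cxcl2 and GGGCTCTTCC in Cxcl3. Ccl1 held GGGAAGTTCCC, beginning 196 bases before the start, and Cxcl10 held GGGAAATTCC and GGGGACTTCC. Cxcl15 and Ccl6, also at a mean of at least 10 CPM in lung ILC2, were searched and lacked the form. So did the less abundant Cxcl12, described below.

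Total counts were 4495260 to 14424313 in ZsGreen-negative, 5762491 to 17627469 in ZsGreen-positive and 5951494 to 7745062 in DN3 libraries. Levels are CPM after TMM scaling over all 11 libraries. The lung libraries came in batches of 2 September 2024 (ZsGreen-negative 1 to 4, ZsGreen-positive 1 and 2) and 8 April 2025 (ZsGreen-negative 5, ZsGreen-positive 3), and all DN3 libraries in a batch of 17 October 2024. For DN3, the effects of tissue and of batch cannot be told apart. Of 18 ILC2 identity genes none was at 0 in every lung library, and 5 were at 0 in DN3. Of 16 DN3 identity genes none was at 0 in DN3. Only Ptcra and Rag2, genes of pre-T cell receptor assembly, were at 0 in every lung library. Il2ra, on both lists, had means of 965 CPM in ZsGreen-negative ILC2 and 1088 CPM in DN3. The mean log2(CPM + 1) of the ILC2 list was 9.04 in ZsGreen-negative, 9.06 in ZsGreen-positive and 3.35 in DN3 libraries. That of the DN3 list was 3.54, 3.75 and 8.56 in the same order. Markers of lung structural cells (34 genes of epithelium, endothelium and fibroblasts) summed to 756 to 1785 CPM in ZsGreen-negative and 1585 to 3599.9 CPM in ZsGreen-positive libraries, none of them at 0 in every lung library. Their score, the mean log2(CPM + 1), was 0.93 higher in ZsGreen-positive libraries (exact two-sided permutation p = 0.0714 with 5 against 3, and 0.1 within batches). Of 31 structural markers tested, 5 rose and none fell.

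Of the 72 members, 24 passed the filter on low counts among the lung libraries (12 ligands and 12 receptors) and 26 when DN3 was included. The other 46 were tested nowhere: 14 had no count in any library and 32 had between 1 and 89 counts in all 11 together, the most for Cxcr5, a receptor of follicle-seeking lymphocytes. A mean of at least 10 CPM was reached by 17 members in lung ILC2, 8 ligands and 9 receptors, and by 3 in DN3, which were Cxcr4, Ccr9 and Ccl25. Ligand CPM summed to 2449 ± 355 (SD, n = 5) in ZsGreen-negative ILC2, 2054 ± 250.3 (SD, n = 3) in ZsGreen-positive ILC2 and 21.1 ± 0.443 (SD, n = 3) in DN3. Receptor CPM summed to 3347 ± 349, 3247 ± 355 and 259.9 ± 10.98 in the same order (SD).

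**Figure D1:**
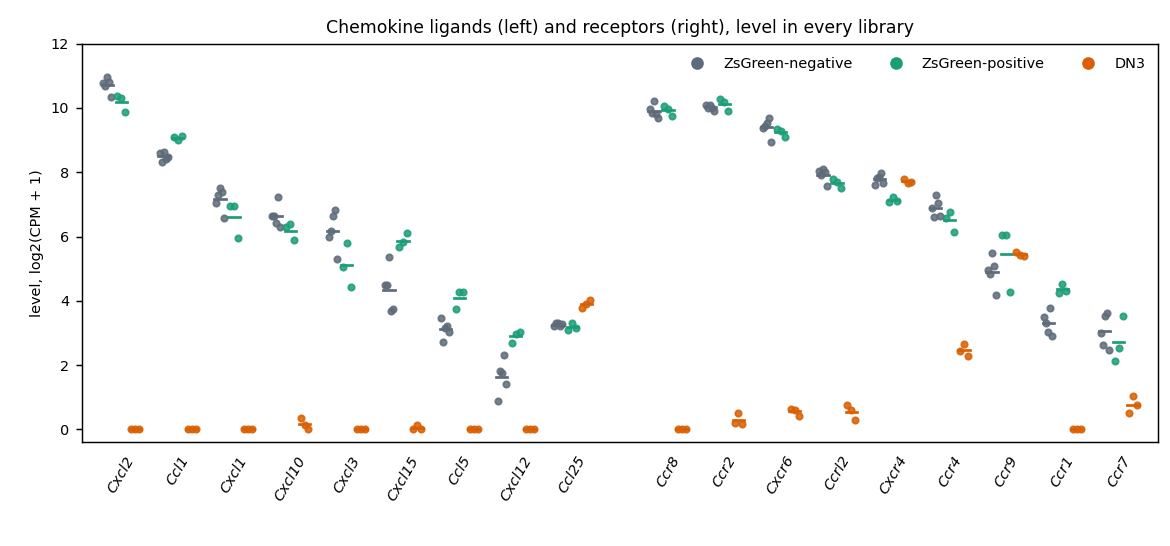
Level of 9 ligand and 9 receptor genes in every library, as log2(CPM + 1), with a dot per library and a bar at the group mean. In DN3, Cxcr4, Ccr9 and Ccl25 lie within or above the lung range, while Cxcl2, Ccl1, Cxcl1, Cxcl3, Ccl5, Cxcl12, Ccr8 and Ccr1 are at 0 counts.

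Corrected for length, lung ILC2 carried a receptor set led by Ccr8, Cxcr6, Ccr2 and Cxcr4. By CPM alone, Ccr2 was the highest receptor in every lung library but ZsGreen-negative library 3, where Ccr8 was. Per length (CPM per kilobase of exon) over the 8 lung libraries, Ccr8, a receptor of type 2 and regulatory lymphocytes, stood at 823 ± 99.2 (SD). Cxcr6, the receptor of the membrane-bound ligand Cxcl16, followed at 339 ± 53.7, and Ccr2, which brings monocytes and lymphocytes out of the marrow, at 158 ± 14.1. Cxcr4, the receptor of Cxcl12, was at 105 ± 25.3, Ccrl2, an atypical receptor that binds chemerin, at 87.9 ± 13.7, and Ccr4, a receptor of skin- and lung-seeking type 2 lymphocytes, at 35.2 ± 8.36. Ccr1 (4.62 ± 2.07), Ccr9 (3.66 ± 1.86) and Ccr7 (3.62 ± 1.61) were lower. In this order Cxcr4 and Ccrl2 differed by less than the SD of Cxcr4 but more than that of Ccrl2, and each next neighbour from Ccr1 to Ccr7 by less than the SD of either; the gap from Ccr8 to Cxcr6 was wider than the SD of either.

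Among ligands, Cxcl2 and Ccl1 led. Cxcl2, a neutrophil attractant that acts on Cxcr2, stood at 727 ± 170.0 CPM per kilobase (SD, n = 8), within the spread of Ccr8. Ccl1, a ligand of Ccr8, was at 180.3 ± 40.8, Cxcl1, another Cxcr2 ligand, at 68.8 ± 20.8, and Cxcl10, an interferon-induced ligand of Cxcr3, at 40.2 ± 11.8. Lower were Cxcl3 (17.5 ± 9.13), Cxcl15, a lung epithelial chemokine of mice, (16.5 ± 10.1), Ccl5 (11.5 ± 5.16), a ligand of Ccr1, and Ccl6 (8.58 ± 6.37), a chemokine of myeloid cells. These neighbours lay within the spread of each other.

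Receptor and ligand were not always read in the same libraries. Ccl1 and Ccr8 were both abundant in lung ILC2. Cxcl2, Cxcl1 and Cxcl3 were read where their receptor Cxcr2 was near 0, at most 1.28 CPM in any lung library, and Cxcl10 where Cxcr3 was at most 1.08 CPM. The reverse held for Cxcr6, Cxcr4 and Ccr4: their ligands Cxcl16 and Cxcl12 had group means of at most 0.875 and 0.790 CPM per kilobase, and Ccl17 and Ccl22 did not pass the filter, at no more than 0.909 and 1.03 CPM. The Ccr2 ligands Ccl2, Ccl7 and Ccl12 were also untested, with Ccl12 at 0 counts throughout and Ccl2 and Ccl7 at no more than 0.480 and 0.364 CPM. Ccl8, another ligand of Ccr8, had 0 counts in all 11 libraries. The Ccr7 ligand Ccl19 reached only 0.0744 CPM, and Ccl21a, which has near-identical copies that counting can confuse, 3.85 CPM.

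**Figure D2:**
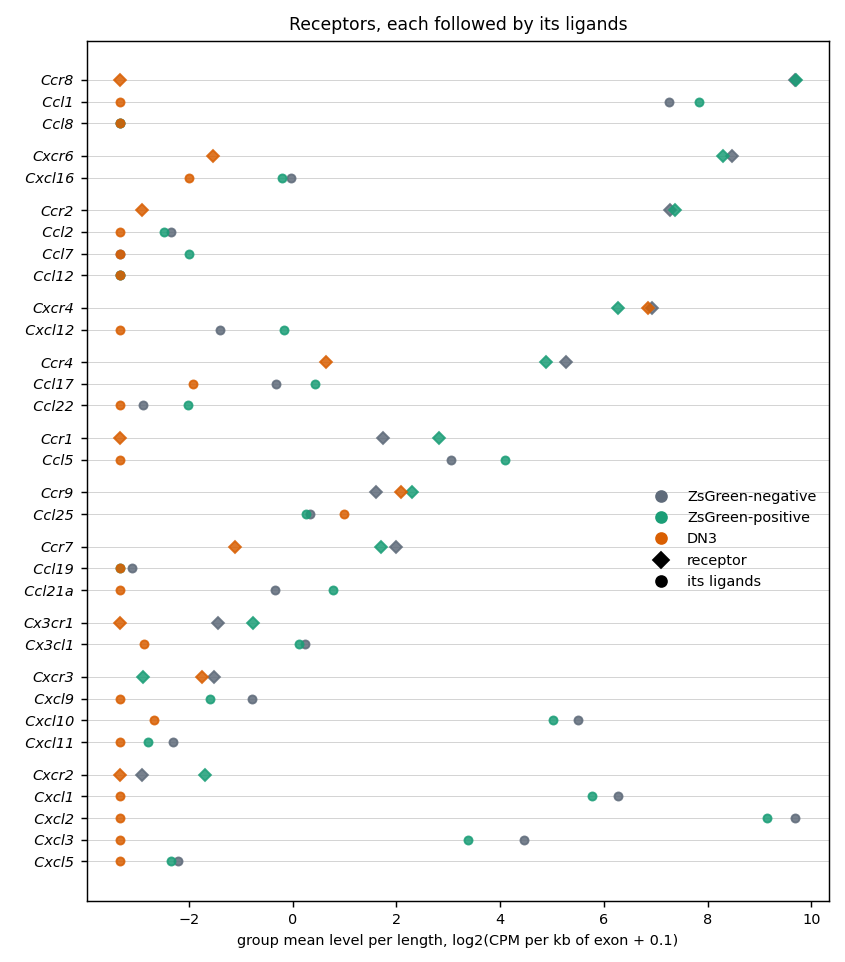
Group mean level per length, as log2(CPM per kilobase of exon + 0.1), of 11 receptors (diamonds), each followed by its ligands (circles), in the 3 groups. Ccl1 lies high together with Ccr8, whereas Cxcl1, Cxcl2 and Cxcl3 lie far to the right of Cxcr2, and Cxcl16 and Cxcl12 far to the left of Cxcr6 and Cxcr4.

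The first comparison asked how ILC2 with a history of Cd3g-driven Cre differ from those without. ZsGreen-positive ILC2 held more Ccl1, Ccl5, Cxcl12, Ccr1 and Ccr9 RNA and less Cxcl2, Cxcl1 and Cxcr4 RNA. These were 8 of the 24 members tested (edgeR quasi-likelihood, Benjamini-Hochberg adjusted p under 0.05), 5 higher and 3 lower, where 4.52% of all 13771 genes tested were called, 2.35% higher and 2.18% lower. By edgeR 14 members had an unadjusted p under 0.05, for which the share over all genes was not taken. The groups did not overlap for 6 of the 24 members, against 10.3% of all genes tested. The median log2 fold change of the 24 was -0.09, and -0.00 for all genes. In bulk RNA, fewer cells of a kind and less RNA per cell cannot be told apart.

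Ccl1 (ENSMUSG00000020702), the ligand of Ccr8, was the abundant ligand that rose. It measured 388, 319.7, 398, 343 and 351 CPM in ZsGreen-negative libraries 1 to 5 and 549, 512 and 556 CPM in ZsGreen-positive libraries 1 to 3. Every ZsGreen-positive library lay above every ZsGreen-negative one. Its log2 fold change was 0.58 ± 0.09 (SE; edgeR adjusted p = 0.000808), with group means of 360.1 ± 32.7 CPM (SD, n = 5) and 539 ± 23.5 CPM (SD, n = 3). Its receptor Ccr8 (ENSMUSG00000042262) did not pass the test: it measured 993, 911, 1180.5, 893 and 831 CPM and 1060.4, 1007 and 860.5 CPM in the same order, with the groups overlapping, and the log2 fold change was 0.06 ± 0.10 (edgeR adjusted p = 0.867).

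Cxcl2 and Cxcl1, ligands of Cxcr2, fell. Cxcl2 (ENSMUSG00000058427) measured 1759.7, 1647, 1989, 1803 and 1296 CPM in ZsGreen-negative and 1328, 1269 and 933 CPM in ZsGreen-positive libraries. The groups touched only through ZsGreen-negative library 5, which lay below ZsGreen-positive library 1, and the 2025 libraries were the lowest of their groups. Its log2 fold change was -0.47 ± 0.09 (edgeR adjusted p = 0.00614), and the ratio of the groups was 0.722 in the 2024 batch and 0.720 between the libraries of 2025. Cxcl1 (ENSMUSG00000029380) measured 129.7, 156, 179.7, 166 and 94.9 CPM and 122, 123 and 60.5 CPM. Both 2025 libraries were again the lowest, and the groups overlapped. Its log2 fold change was -0.44 ± 0.10 (edgeR adjusted p = 0.0199), a call lost without ZsGreen-negative library 5 (0.163), without ZsGreen-positive library 1, 2 or 3 (0.0609, 0.0505 and 0.145) and without the batch term (0.528). Cxcl3 (ENSMUSG00000029379) did not pass, at 61.9, 71.5, 98.7, 112 and 38.6 CPM and 32.04, 55.2 and 20.8 CPM, with a log2 fold change of -0.96 ± 0.27 (edgeR adjusted p = 0.109); DESeq2 (0.0284) and limma voom (0.00747) called it, as did edgeR without ZsGreen-negative library 1 (0.0311). The 3 genes are paralogs with similar sequence, so reads could be split between them.

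Cxcl15 (ENSMUSG00000029375) lies between Cxcl3 and Cxcl1 in RefSeq's gene order, in the row Cxcl3, Cxcl15, Cxcl1, Cxcl2, yet its ZsGreen-positive values were the higher ones. It measured 21.3, 21.5, 40.4, 11.8 and 12.3 CPM in ZsGreen-negative and 49.95, 55.7 and 68.4 CPM in ZsGreen-positive libraries. The groups did not overlap, and ZsGreen-negative library 3, the highest of its group, also had the highest structural score of that group, 4.17 against 3.04 to 3.62 in the other 4. The edgeR test did not call Cxcl15 (log2 fold change 1.57 ± 0.44, adjusted p = 0.140); it passed with DESeq2 (0.0312), with limma voom (0.000509) and without ZsGreen-negative library 3 (0.000662). With the structural score added to the fit its log2 fold change was 0.43 (edgeR adjusted p = 0.668).

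Ccl5 and Cxcl12 rose from low levels. Ccl5 (ENSMUSG00000035042) measured 10.03, 5.59, 7.93, 8.32 and 7.22 CPM and 12.4, 18.3 and 18.4 CPM, and Cxcl12 (ENSMUSG00000061353), the stromal ligand of Cxcr4, 0.865, 2.53, 2.40, 3.99 and 1.64 CPM and 5.39, 6.78 and 7.21 CPM. The groups did not overlap for either gene. The log2 fold changes were 1.07 ± 0.20 for Ccl5 (edgeR adjusted p = 0.00397) and 1.56 ± 0.35 for Cxcl12 (edgeR adjusted p = 0.0131). Neither passed without ZsGreen-negative library 5 (edgeR adjusted p = 0.0504 and 0.126), without ZsGreen-positive library 2 (0.0510 and 0.0691) or without ZsGreen-positive library 3 (0.0544 and 0.145). Cxcl10 (97.7, 98.9, 84.5, 148 and 76.8 CPM against 77.3, 83.1 and 57.8 CPM) and Ccl6 (6.40, 5.77, 27.6, 14.3 and 6.03 CPM against 11.1, 37.4 and 14.7 CPM) did not pass, with log2 fold changes of -0.42 ± 0.15 and 0.99 ± 0.68. Ccl6 was highest in ZsGreen-positive library 2 and ZsGreen-negative library 3, which also had the highest scores of macrophage and dendritic markers of their groups, 3.00 and 2.65, and with that score as a term its log2 fold change was 0.16. Ccl25 (8.60 ± 0.277 CPM (SD, n = 5) against 8.15 ± 0.743 CPM (SD, n = 3)), the membrane-bound Cx3cl1 (4.25 ± 1.82 CPM against 3.87 ± 1.07 CPM) and Cxcl16 (2.64 ± 0.498 CPM against 2.30 ± 0.613 CPM) did not pass either.

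Cxcr4 (ENSMUSG00000045382), which holds cells near sources of Cxcl12, was the receptor that fell. It measured 194, 226, 229.6, 253 and 201 CPM in ZsGreen-negative and 134, 148 and 137 CPM in ZsGreen-positive libraries. All ZsGreen-positive libraries lay below all ZsGreen-negative ones. Its log2 fold change was -0.64 ± 0.09 (edgeR adjusted p = 0.000478), with ratios of 0.625 in the 2024 batch and 0.682 in 2025. Ccr1 (ENSMUSG00000025804), a receptor of Ccl5 and related ligands, rose from 10.2, 9.02, 7.21, 12.6 and 6.55 CPM to 18.1, 22.00 and 18.97 CPM, with no overlap. Its log2 fold change was 1.18 ± 0.18 (edgeR adjusted p = 0.000808). Ccr1 lies in a row of receptor genes with Ccr1l1, Ccr3 and Ccr2. Ccr3 and Ccr2 were tested and did not pass, Ccr3, an eosinophil receptor near the filter (0.98 ± 0.49, edgeR adjusted p = 0.336), and Ccr2 (0.13 ± 0.09, 0.503).

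Of the other abundant receptors of lung ILC2, Ccr2, Cxcr6, Ccrl2 and Ccr4 did not pass. Ccr2 (ENSMUSG00000049103) measured 1089, 1028, 1097, 1025 and 963 CPM against 1243, 1153 and 968 CPM, and Cxcr6 (ENSMUSG00000048521) 663, 687, 743, 827 and 495 CPM against 649.5, 627 and 552 CPM. Ccrl2 (ENSMUSG00000043953) measured 262, 241, 276, 257 and 189 CPM against 218, 205 and 181 CPM, and Ccr4 (ENSMUSG00000047898) 117, 95.8, 155, 132 and 98.1 CPM against 95.4, 108 and 70.1 CPM. The groups overlapped for all 4, and the log2 fold changes were -0.09 ± 0.10 for Cxcr6 (edgeR adjusted p = 0.736), -0.22 ± 0.08 for Ccrl2 (0.156) and -0.35 ± 0.13 for Ccr4 (0.184). Ccr4 passed under 4 of 21 alternatives. These were the fit without ZsGreen-negative library 2 (edgeR adjusted p = 0.0197), that without the filter on low counts, and those with the macrophage and dendritic score, with or without Ccr2, as a term. The scavenger receptor Ackr3, which also takes up Cxcl12, was low (1.46 ± 1.09 CPM (SD, n = 5) and 2.84 ± 0.905 CPM (SD, n = 3)), with a log2 fold change of 1.13 ± 0.48 (edgeR adjusted p = 0.222, and 0.0407 without ZsGreen-negative library 3).

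**Figure D3:**
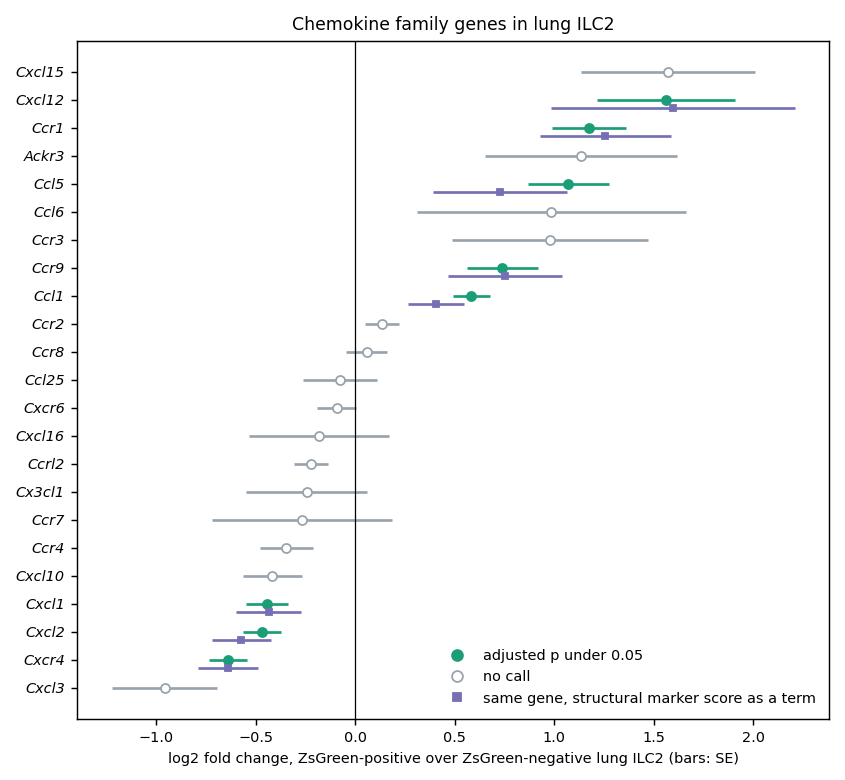
Log2 fold change of 23 of the 24 members tested, ZsGreen-positive over ZsGreen-negative lung ILC2, with bars of 1 SE; filled circles passed at an adjusted p under 0.05, and squares show the same genes with the structural marker score as a term. With that term the estimates of the 8 called genes keep their sign and their SE is wider.

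The structural marker score moved with the ZsGreen groups, and with it as a term in the fit none of the 8 called members passed. Calls fell over all 13771 genes tested too, to 15 higher and 45 lower, against 323 and 300 in the main fit. All 8 members kept their sign. Their median SE went from 0.14 to 0.22 and their median absolute log2 fold change from 0.69 to 0.68. Ccl1 stood at 0.41 (edgeR adjusted p = 0.359), Cxcr4 at -0.64 (0.0775), Ccr1 at 1.26 (0.119) and Cxcl2 at -0.57 (0.115). Ccl5 went from 1.07 to 0.73, while Cxcl12 stood at 1.60. The 18 macrophage and dendritic markers, which include Ccr2, summed to 1043 to 1415 CPM and 1194 to 1596 CPM, or without Ccr2 to 78.4 to 318 CPM and 149 to 443 CPM, with 0 of 11 tested markers called. With their score as a term, 6 of the 8 members passed, while Cxcl12 and Ccr9 did not. Over all genes tested, 179 were called higher and 274 lower with that term. What part other cells had in these values was not tested apart from these fits.

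**Figure D4:**
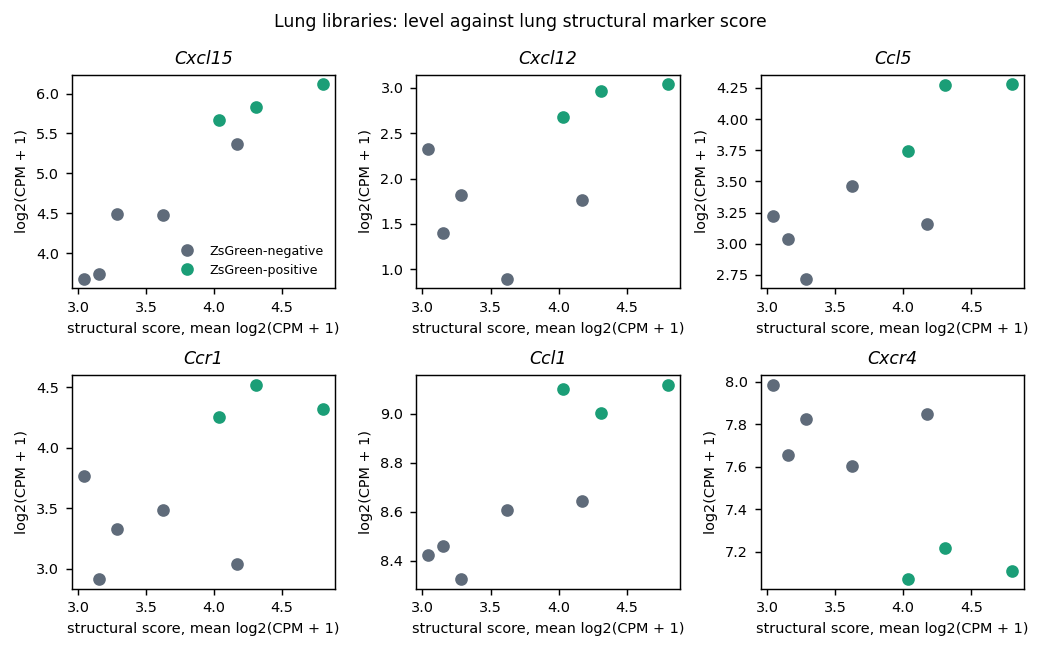
Level of 6 members in the 8 lung libraries, as log2(CPM + 1), against the lung structural marker score, the mean log2(CPM + 1) of 34 markers. ZsGreen-negative library 3, with a score of 4.17, lies among the ZsGreen-positive scores. Its Cxcl15 and Ccl1 levels are the highest of the ZsGreen-negative libraries. Its levels of all 6 members lie on the ZsGreen-negative side of every ZsGreen-positive library.

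Ccr9 and Ccr7, receptors that guide T cell precursors and lymph node entry, had group ratios that differed between the batch dates. Neither difference was called, as given below with the share over all genes. Ccr9 (ENSMUSG00000029530) measured 30.1, 27.4, 43.7, 32.6 and 17.3 CPM in ZsGreen-negative and 65.4, 65.3 and 18.2 CPM in ZsGreen-positive libraries. ZsGreen-positive libraries 1 and 2 were the highest of all, while library 3 was below 4 of the 5 ZsGreen-negative libraries. With batch as a term Ccr9 passed, at a log2 fold change of 0.74 ± 0.18 (edgeR adjusted p = 0.0353), and without that term it did not (0.606). The ratio of the groups was 1.95 in the 2024 batch and 1.05 in 2025, where each group had 1 library. Ccr9 also failed without ZsGreen-negative library 1 (0.0676) or 4 (0.0848) and without ZsGreen-positive library 1 (0.124) or 2 (0.156). The same held with the structural score, with either macrophage score, with the replicate number as a block and with all 11 libraries in the fit. Its call stood under 11 of 21 alternatives.

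Ccr7 (ENSMUSG00000037944) measured 6.92, 5.23, 10.6, 11.3 and 4.54 CPM and 3.35, 4.77 and 10.5 CPM, with a log2 fold change of -0.27 ± 0.45 (edgeR adjusted p = 0.857). Its ratio was 0.477 in 2024 and 2.32 in 2025, with 1 library a group in 2025, so the batches differed in direction. In a fit with an interaction of group and batch, edgeR called 0 of 13771 genes, with 864 (6.27%) at an unadjusted p under 0.05. Ccr7 and Ccr9 were the 2 of 24 members at an unadjusted p under 0.05, with differences of 2.26 ± 0.57 and -0.93 ± 0.30 log2 units between batches (edgeR adjusted p = 0.776 for each).

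**Figure D5:**
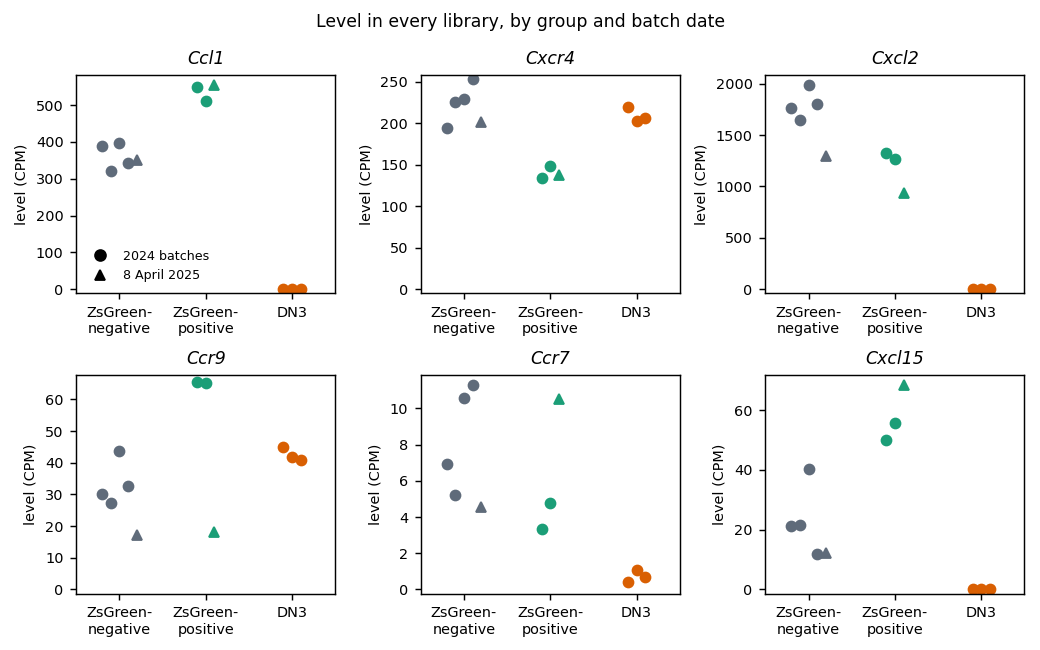
Level in CPM of 6 members in every library, by group, with triangles for the libraries of 8 April 2025. Ccl1, Cxcr4 and Cxcl15 keep the ZsGreen groups apart in both batches, whereas ZsGreen-positive Ccr9 and Ccr7 of 2025 lie far from the 2024 libraries of their group.

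Genes downstream of the receptors were taken from 4 lists written for the pathway, and the counts that follow stand beside 4.52% of all genes called between the lung groups. Of 25 genes of signal transduction tested 1 rose, Plcb3, a phospholipase C that acts after G protein release, from 104 ± 11.1 to 143 ± 19.1 CPM (log2 fold change 0.42 ± 0.08, edgeR adjusted p = 0.00395). Of 12 genes of the desensitisation list 1 fell, Gnaq, which is a G protein alpha subunit and not a kinase or arrestin (-0.29 ± 0.08, edgeR adjusted p = 0.0476). None of 7 other chemoattractant receptors passed. By edgeR 2 of them had an unadjusted p under 0.05, again without a share over all genes. Of 16 chemokine-like and processing genes 1 fell, Dpp4, a protease that trims chemokines, from 40.2 ± 4.05 to 23.9 ± 2.01 CPM (-0.75 ± 0.12, 0.00121). The median log2 fold changes of the 4 lists were 0.03, 0.03, -0.08 and -0.01.

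The second comparison set DN3 cells against the lung groups. Most chemokine genes of ILC2 had few or no counts in DN3 cells, whereas Cxcr4 and Ccr9 were read at lung levels. Against ZsGreen-negative ILC2, 22 of 26 members tested were lower and 2 higher, where 76.7% of 15132 genes were called (41.2% lower, 35.5% higher). Against ZsGreen-positive ILC2, 22 were lower and 3 higher (75.1% of all genes called, 40.3% lower and 34.8% higher). Against all lung ILC2, 22 were lower and 3 higher (78.8%, 42.1% and 36.7%). These comparisons share the DN3 libraries. Of the 26 members, 10 had 0 counts in DN3. They passed the filter only through the lung libraries where they were read, which fixes their direction. The same holds for lower members with few counts in DN3, such as Ccr7 (3, 10 and 6 counts), Ccr2 (1, 4 and 1) and Cxcr6 (4, 5 and 3). Among the lower members only Ccr4 (32, 50 and 34 counts) could also pass through DN3. The tally is given as a description. The median log2 fold change of the 26 against all lung ILC2 was -8.13, or -6.44 with genes at 0 in DN3 set to their bound, and that of all genes was -0.09. Under upper-quartile scaling that last median was 0.01.

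Among ligands, Cxcl2, Ccl1, Cxcl1, Cxcl3, Ccl5 and Cxcl12 had 0 counts in all 3 DN3 libraries. Against a floor of 3 counts over the 3 DN3 libraries together, they were at least 12761-fold, 3626-fold, 1095-fold, 521-fold, 93.6-fold and 32.7-fold lower than in lung ILC2. Cxcl10 and Cxcl15 had 1 to 3 counts there, with lung over DN3 ratios of 768 (95% Poisson interval 263 to 3724) and 895 (161 to 35368). Such intervals and floors cover counting error only.

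Receptors split in DN3. Ccr8, Ccr1, Ccr3 and the Cx3cl1 receptor Cx3cr1 had 0 counts, or at least 8208-fold, 111-fold, 13.00-fold and 13.4-fold lower. Ccr2 (0.140, 0.423 and 0.113 CPM in DN3), Cxcr6 (0.559, 0.528 and 0.339 CPM) and Ccrl2 (0.699, 0.528 and 0.226 CPM) were low. Ccr4 measured 4.48, 5.28 and 3.84 CPM in DN3, 24.02-fold below the lung mean (edgeR adjusted p = 6.83e-10). Ccr7 measured 0.420, 1.06 and 0.678 CPM there, 9.96-fold below the lung mean. Ccr7 entered the fit through the lung libraries, where it was higher, so its fold is a description.

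Cxcr4, which thymocytes need at beta selection, measured 220.1, 202 and 207 CPM in DN3. These values lay inside the ZsGreen-negative range and above every ZsGreen-positive library. Its log2 fold change was -0.04 ± 0.09 against ZsGreen-negative (edgeR adjusted p = 0.679; upper-quartile scaling turned the sign, to 0.06) and 0.62 ± 0.10 against ZsGreen-positive ILC2 (edgeR adjusted p = 7.88e-06). Against all lung ILC2 it was 0.21 ± 0.08 (edgeR adjusted p = 0.0240). That call was lost without ZsGreen-positive library 1, 2 or 3, without DN3 library 1 or 3, and without the filter on low counts, at edgeR adjusted p from 0.0604 to 0.168. Per length, Cxcr4 led the receptors of DN3 at 116 ± 5.17 CPM per kilobase (SD, n = 3), before Ccr9 at 4.15 ± 0.215 and Ccr4 at 1.47 ± 0.233.

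Ccr9, a thymus-homing receptor, measured 45.03, 41.8 and 40.8 CPM in DN3. That is between ZsGreen-positive libraries 1 and 2, which were higher, and library 3, which was lower. It passed against neither ZsGreen-negative (0.56 ± 0.44, edgeR adjusted p = 0.275) nor ZsGreen-positive ILC2 (-0.14 ± 0.48, 0.799). With the lung libraries of 2024 alone, DN3 was higher than ZsGreen-negative (0.41, edgeR adjusted p = 0.00430) and lower than ZsGreen-positive ILC2 (-0.57, 0.000752). Without ZsGreen-positive library 3 it passed against ZsGreen-negative ILC2 (0.60, edgeR adjusted p = 0.0358). Against ZsGreen-positive ILC2 the sign turned with limma voom (0.23), without ZsGreen-positive library 1 (0.13) and without library 2 (0.12), with no call in any of these. Its ligand Ccl25 (ENSMUSG00000023235), a product of thymic epithelium, was higher in DN3, at 12.7, 13.8 and 15.3 CPM against a lung mean of 8.43 ± 0.506 CPM (SD, n = 8). DN3 lay above every lung library (log2 fold change 0.77 ± 0.14, edgeR adjusted p = 3.61e-05). Of 10 thymic epithelial markers, Foxn1, Krt5 and Krt14 were at 0 in all 11 libraries and Dll4 in DN3 only. Epcam (35.3 ± 3.68 CPM in DN3 against 13.8 ± 0.794 CPM in ZsGreen-negative ILC2, SD), Aire (8.70 ± 2.18 against 2.80 ± 0.490 CPM) and Ly75 (31.5 ± 1.32 against 17.4 ± 1.82 CPM) had higher means in DN3. Ctsl had a lower mean there (14.3 ± 2.03 against 24.4 ± 3.91 CPM). Prss16 (0.355 ± 0.519 CPM) and Psmb11 (0.0818 ± 0.0729 CPM) were near 0 in DN3, and Prss16 was at 0 in every lung library. The list summed to 86.2 to 95.8 CPM there against 56.5 to 65.8 CPM in ZsGreen-negative and 61.8 to 73.1 CPM in ZsGreen-positive libraries. Their part in the Ccl25 value was not tested. Ccl27a, a ligand of Ccr10 with near-identical copies that counting can confuse, measured 5.87, 5.07 and 4.18 CPM in DN3 against 1.23 ± 0.472 CPM (SD, n = 8) in lung ILC2. It did not pass the filter among the lung libraries and entered the DN3 fit through the DN3 libraries, where it was high, so its log2 fold change of 1.99 ± 0.29 is a description.

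For the same 4 lists in DN3 against all lung ILC2, the counts stand beside 78.8% of all genes called (42.1% lower, 36.7% higher). Of 25 genes of signal transduction tested, 19 fell and 2 rose. Gng2, a G protein gamma subunit, went from 164 ± 22.1 to 6.81 ± 0.648 CPM (log2 fold change -4.55 ± 0.11), and Ptk2b, a relative of focal adhesion kinase, from 392 ± 16.8 to 60.3 ± 7.77 CPM. Pik3r5, a regulator of phosphoinositide 3-kinase gamma, rose slightly (0.30 ± 0.11, edgeR adjusted p = 0.0227). Of 12 genes of the desensitisation list 8 fell, among them Gnaq and the arrestins Arrb1 (-2.96 ± 0.10) and Arrb2 (-2.49 ± 0.10), and the receptor kinase Grk3 rose (1.33 ± 0.18). Of 10 other chemoattractant receptors 8 fell and 2 rose. Gpr183, an oxysterol receptor, went from 128 ± 11.96 to 3.01 ± 0.318 CPM, and Ltb4r1, a leukotriene receptor, from 377 ± 56.7 to 0.0377 ± 0.0652 CPM. Only 7 of this list passed the filter among the lung libraries. Ltb4r1 entered the DN3 fit through the lung libraries, where it was high. The risers Gpr55 (0.440 CPM in lung, 3.11 in DN3) and Cmklr1 (0.574 and 1.92 CPM) entered through DN3. Such entry fixes the direction, so the counts of this list and its median below are a description. Of 16 chemokine-like and processing genes 11 fell and 4 rose, led by Dpp4 at 228 ± 18.2 CPM (2.82 ± 0.08) and Mif, a chemokine-like cytokine that binds Cxcr4, at 201 ± 12.7 CPM (2.02 ± 0.09). The medians of the 4 lists were -0.67, -0.77, -5.23 and -0.75, beside -0.09 for all genes.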

How the data were processed

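The authors deposited raw counts of reads per gene as whole numbers, in 1 table of the 8 lung libraries and 1 of all 11; the lung columns were identical (0 differed), and 0 columns were left unused. RNA came from a PicoPure kit and libraries from a Watchmaker mRNA kit, per the labels' protocols. GRCm39 and DESeq2 are named in the submitters' processing notes; the sources used here do not give the aligner, counter, annotation or strand use.

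Members and lists were chosen with earlier results of these data known. Named were the 6 marker genes, members called in the lung comparison and those with a mean of at least 10 CPM in a group, and of each pathway list up to 4 genes per direction; 1 member is counted but not reported here by name. Counts were tested with edgeR 4.0.16 (R 4.3.3): TMM, filterByExpr with a minimum count of 10, quasi-likelihood F test, Benjamini-Hochberg adjustment over all genes tested, threshold 0.05. The lung fit held 8 libraries with batch date as a term; the DN3 fit held all 11 with group alone. SE is the log2 fold change over the root of F. The script was tested on simulated data. Alternatives used DESeq2 1.42.0, limma voom 3.58.1, other scaling, filters, libraries and terms. Exon lengths came from GENCODE M21 (GRCm38; 70 of 72 members matched), another build than the authors', and promoters from RefSeq GRCm38.p6. Replicate pairs all differed by more than counting noise (chi-square over degrees of freedom from 1.77 to 15.3).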

Additional observations from a re-analysis of the deposited data

How the results depend on the processing

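In the lung comparison, the 5 members higher in ZsGreen-positive ILC2 became 2 to 7 when a library was left out (3 without ZsGreen-negative library 5, 2 without ZsGreen-positive library 2 and 3 without ZsGreen-positive library 3). They became 3 with the 2024 batch alone, 3 with the macrophage score as a term, also without Ccr2 in it, and 0 when the structural score was a term. The 3 lower members became 2 to 4 when a library was left out, 6 without a filter, 5 with either macrophage score and 0 with the structural one. Over all genes tested, the structural score left 15 higher and 45 lower, against 323 and 300 in the main fit. Lung libraries of the same replicate number showed little correlation (between -0.09 and 0.07), and those of number 3 came from different batches. Other pairings were not tested. With the replicate number as a block in place of the batch term, 1 member was lower. Of 499 member values under the alternatives, 445 kept their side of the threshold, 37 lost and 17 gained a call, and none that was called reversed. Ccl1, Ccr1 and Cxcr4 lost their call under 1 of 21 alternatives, the structural score. Pathway list genes higher (1) became 3 with DESeq2, 4 with limma voom, 3 with all 11 libraries in the fit, 1 to 2 with a library left out, and 0 with the block or the structural score. Those lower (2) became 4 with limma voom and 1 with upper-quartile scaling, a minimum count of 50, the block, no batch term, the 2024 batch alone or the structural score, and 1 to 2 with a library left out. Among DN3 comparisons, the 22 lower members became 34 (against ZsGreen-negative) and 38 (against ZsGreen-positive and against all lung ILC2) without a filter, which tests more genes. The 2 higher against ZsGreen-negative became 1 at a minimum count of 50. The cause was not tested for the other changes. The following terms or tests were added after seeing the data: the macrophage score without Ccr2, the interaction of group and batch, and the permutation within batches. Depth limits the members below the filter, where 1 count stood for 0.0567 to 0.222 CPM.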
